A study of Homo sapiens with 5 samples.

Results

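The genes described here lie in a run of consecutive rows of the deposited gene table, 199 rows long, that corresponds to the distal short arm of chromosome 6 and includes the large cluster of replication-dependent histone genes. Every row of the run had an Ensembl identifier, and 152 of the 199 genes, the members, had at least 15 counts summed over the 5 libraries. The table as a whole held 20001 rows with an identifier, of which 14496 reached that sum. The run was chosen by the fold changes of these same libraries, as a stretch of rows whose genes stood higher with the CAG promoter than with the PGK promoter. The direction of its genes between the promoters is therefore how they were selected, and every value of that contrast for a member is a description without a test.

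Nascent RNA was measured by PRO-seq, in which polymerases already on a gene are let run on with biotinylated nucleotides and the labelled RNA is sequenced, so that counts follow transcription in progress rather than accumulated RNA. All libraries came from HEK293T, a line from human embryonic kidney with SV40 large T antigen, grown as monoclonal derivatives that hold a landing pad (an engineered docking site for inserted DNA). The landing pad carried the PGK promoter, taken from a glycolysis gene, in 2 libraries and the CAG promoter, a strong composite promoter, in 3 libraries. No further treatment or allele is given for either group. How many clones stand behind each promoter is not given, so promoter and clone cannot be told apart, and "PGK line" and "CAG line" stand for both. Whether replicates were separate cultures is not given either, so every p-value reflects the spread among these 5 libraries alone, which may be technical.

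The table pairs no names with its identifiers. Names were assigned from identifier and symbol pairs that are general knowledge and come from no table used here, and were then checked by position. Of 265 such pairs, 184 fell in the run of rows, all 184 lie on chromosome 6 in RefSeq (GRCh38.p14), and 181 followed one another there in the order of the rows. All 69 pairs that fell elsewhere in the table lay among the rows of their own chromosome. One pair that broke the order was dropped, which left 144 of the 152 members with a name. The other 8 stay without one and could include further histone genes. The older histone symbols of the hg19 era are used.

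Library totals ranged from 3712105 to 5864157 counts, with the lowest in PGK replicate 2. Levels are library-size-scaled counts with TMM factors, in CPM, and are not corrected for gene length, so levels of different genes are not set against each other. Members took 1.27% of all counts, and histone members 0.234%. Of markers of the line, vimentin (VIM) and the kidney developmental gene EYA1 were counted in every library, while the neurofilament gene NEFM had 0 to 4 counts. Of the 6 such markers tested, 3 rose and 2 fell in the CAG line with edgeR, beside 22.7% and 20.7% of all genes tested. VIM, EYA1 and the keratin gene KRT8 rose (log2 fold changes 0.55, 0.56 and 1.42, edgeR adjusted p = 8.22e-07, 0.000656 and 0.00127). The kidney transcription factor genes PAX2 and LHX1 fell (-1.09 and -1.97, edgeR adjusted p = 0.00113 and 1.81e-05). Genes in the neighbouring rows of VIM had a median of 0.61, near its own change. The medians around EYA1, KRT8, PAX2 and LHX1 were 0.02, -0.02, -0.30 and -0.05. The 11 markers of blood, endothelium, fibroblasts, liver and heart that were found had at most 11 counts in a library, and COL1A2, CD3E and MYH6 had 0 in all. Summed over all 11, the level was 2.13 and 0 CPM in PGK and 3.25, 4.35 and 4.25 CPM in CAG.

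Replication-dependent histone genes supply the core histones H2A, H2B, H3 and H4 and the linker histone H1 that package DNA copied in S phase. They lie in clusters, have no introns in their classical form, and give messages that end in a stem-loop in place of a poly(A) tail. Their transcription is driven in S phase through the cyclin E target NPAT, and the stem-loop binding protein SLBP takes part in processing their messages. The same arm of chromosome 6 also carries the forkhead gene FOXC1, genes of development such as TFAP2A, the butyrophilins and a group of zinc finger genes with SCAN domains.

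Across the block, members stood higher in the CAG line by a median log2 fold change of 0.34, which is 1.26-fold, against -0.005 over all 13400 genes tested. Of the 152 members, 146 passed the filter on low counts, and 91 of these were called higher in the CAG line at an adjusted p under 0.05 in edgeR's fit across all genes, beside 22.7% of all genes tested. Another 5 were called lower, beside 20.7%. The share of members called higher, 62.3%, restates how the rows were chosen. In 108 members every CAG library lay above both PGK libraries, beside 30.9% of all genes tested, and in 7 every CAG library lay below, beside 30.4%. A difference of 2-fold or more was seen in 12 of the 146 tested members, all of them higher in the CAG line, beside 7.18% of all genes tested in either direction and 5.22% on the higher side. Among them HIST1H3F, HIST1H2AE, HFE, ZSCAN16, HIST1H3E, STMND1 and SERPINB9 reached the count limit for members only through the CAG libraries. For these genes the limit favours that direction. The 6 members without a fold change because of low counts were HIST1H1T, FOXQ1, FAM50B, C6orf201, F13A1 and TMEM14B.

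The shift had a median above 0 in every stretch of the block, and the rows just before the block lay on the other side of 0. The block starts at the beginning of chromosome 6 if rows follow hg19 order. The rows before it would then lie on another chromosome and would not be its neighbours in the genome. In successive bins of 20 tested members the median log2 fold change was 0.29, 0.19, 0.32, 0.27, 0.34, 0.41 and 0.44, and it was 0.55 in the last 6. The 10 tested rows just before the block had a median of -0.45, and the first 10 tested members 0.41. At the far end the last 10 tested members had a median of 0.49 and the next 10 tested rows 0.04. The 50 tested rows before the block had a median of -0.41 and the 50 after it -0.01. The first member was DUSP22, a dual-specificity phosphatase, with 55.3 and 44.3 CPM in PGK and 67.3, 71.8 and 64.1 CPM in CAG. The last was the unnamed ENSG00000204713, with 194 and 204 CPM in PGK and 244, 232 and 226 CPM in CAG. In both genes the lines did not overlap.

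**Figure D1:**
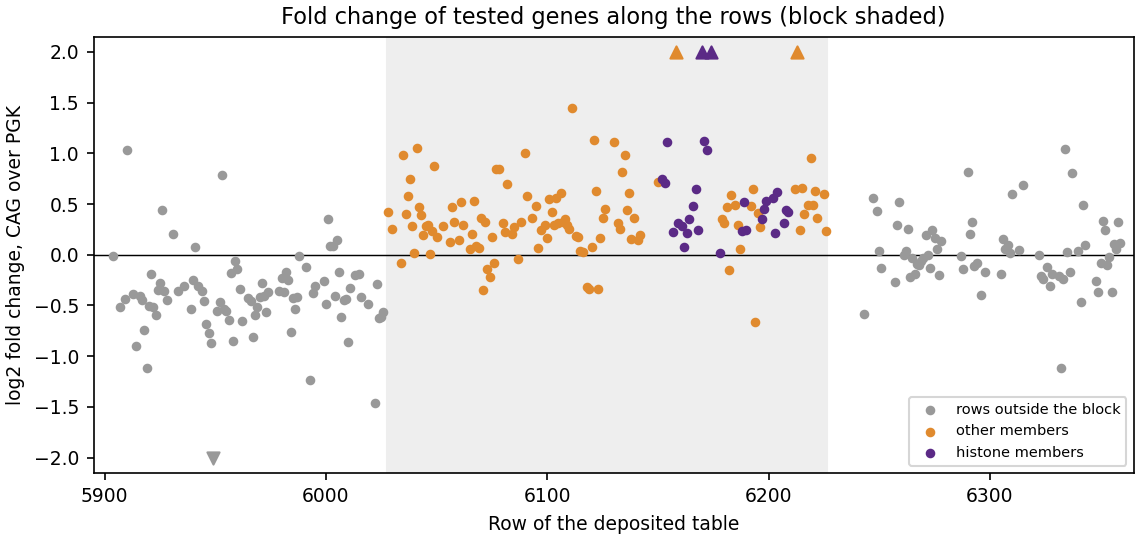
Each point is 1 tested gene, with its row in the deposited table on the x axis and its log2 fold change of CAG over PGK on the y axis; values beyond 2 are drawn as triangles at 2. Within the shaded block both histone members and other members lie mostly above 0, with medians of 0.44 and 0.32. The 50 tested rows before it have a median of -0.41 and would lie on another chromosome if rows follow hg19 order.

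Histone genes of the block fell into a counted and a nearly uncounted set. The run held 46 named histone genes, of which 30 were members and 16 had under 15 counts. None of those 16 had more than 8 counts over the 5 libraries, and 6 had 0, whereas 26 of the 30 members had over 200. By class the members were 4 of 6 H1 genes, 8 of 10 H2A genes, 8 of 15 H2B genes, 7 of 10 H3 genes and 3 of 5 H4 genes. The H1 genes show the range: HIST1H1E had 5560 counts, HIST1H1C 4189, HIST1H1D 490 and the testis form HIST1H1T 15, while HIST1H1A had 3 and HIST1H1B had 0. HIST1H1T was the member just inside the limit of 15 counts, and RBM24, an RNA-binding protein gene with 14, was just outside it. Core histone genes of a class can be near-identical copies. How reads matching several copies were treated, and which part of a gene was counted, is not given in the sources used here. A low count may therefore not mean low transcription of that gene, for H1 genes as well.

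**Figure D2:**
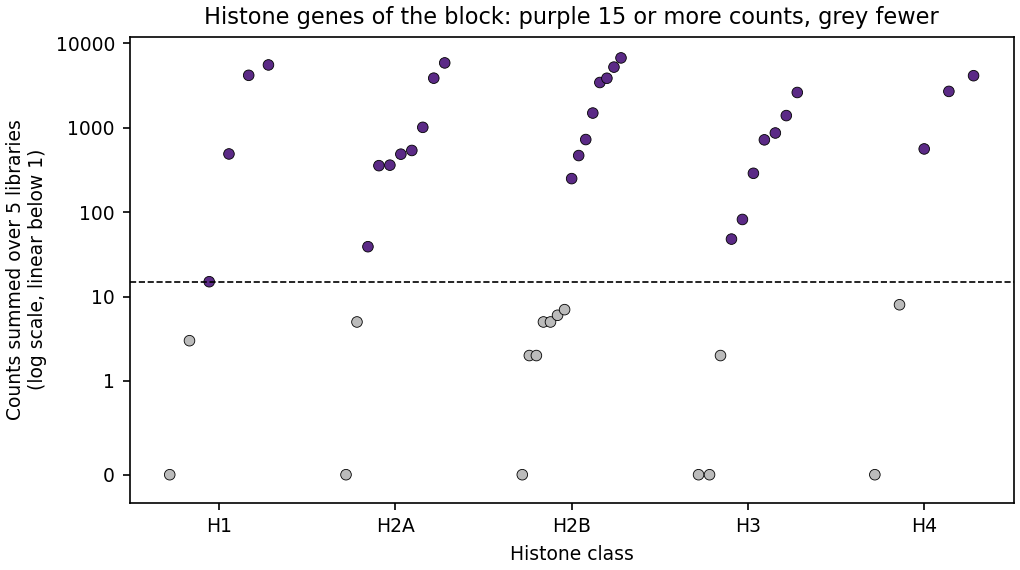
Each point is 1 named histone gene of the block, by class on the x axis and with its counts summed over the 5 libraries on a log y axis (linear below 1); the dashed line marks 15 counts. Purple points are the 30 members and grey points the 16 genes below the limit, none of which exceeds 8 counts.

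Promoter motifs known for histone genes were found in some counted and some uncounted copies, with counts that varied by class. RefSeq promoter windows (GRCh38.p14) were matched for 43 of the 46 histone genes, 28 members and 15 genes under 15 counts, and the 250 bases before the start were searched on both strands. The H1 box, AAACACA, was found in 6 of 6 H1 promoters, beside 5.95% of the 27305 genes with a promoter in the table. The octamer ATTTGCAT, the site of the POU factor encoded by POU2F1, was found in 12 of 15 H2B promoters and 8 of 10 H2A promoters, beside 2.03%. In 8 pairs of an H2A and an H2B gene the starts lie 194 to 248 bases apart. A single site between them can be counted for both genes, so these counts are not of separate sites. It was in 5 of the 8 H2B members and in all 7 H2B genes under 15 counts. The CCAAT box, CCAAT, was found in 41 of the 43 promoters, beside 37.0%, and TATAAA in 28, beside 13%. In H3 promoters TATAAA was in 6 of 6 members and 0 of 2 genes under 15 counts. In H4 promoters none of the 4 motifs was in the 2 members, and CCAAT was in 2 of 2 genes under 15 counts. None of the 4 motifs contains another, and a match is a string of letters, not a measured binding site.

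The H1 windows below, printed 5′ to 3′ with the H1 box in capitals, are shown because copies with 5560 and 4189 counts and a copy with 0 carry the same box on the same strand, 105 to 119 bases before the start. The sixth, HIST1H1A with 3 counts, differs, with its box 183 bases before the start on the opposite strand. The genome coordinates are GRCh38.p14, while the counts were made on hg19.
HIST1H1E (chr6:26156201-26156230, plus strand): tgaggtgtaacAAACACAactcgggatccg
HIST1H1C (chr6:26056571-26056600, minus strand): tgaggtggaacAAACACAacttgggagcag
HIST1H1D (chr6:26235088-26235117, minus strand): taaggggcaacAAACACAgcagcgcggtag
HIST1H1T (chr6:26108222-26108251, minus strand): ccgggtaaaacAAACACAaatactcctcct
HIST1H1B (chr6:27867687-27867716, minus strand): tgaggactaacAAACACAatttgggagtcc

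The H2B windows, with the octamer in capitals, compare the 2 H2B genes with the most counts, HIST1H2BK with 6737 and HIST1H2BJ with 5240, with 4 that were nearly uncounted. HIST1H2BG had 6 counts, HIST1H2BI 5, and HIST1H2BH and HIST1H2BM 2 each. These 6 were chosen because the octamer begins 45 to 49 bases before the start in each, so that counted and uncounted copies can be read side by side. The other H2B promoters differ in its place. It begins 104, 108 and 120 bases before the start in HIST1H2BA, HIST1H2BE and HIST1H2BB, which had under 15 counts, and 111 and 123 bases before it in the members HIST1H2BF and HIST1H2BC. In HIST1H2BO, a member, it lies 149 bases before the start on the opposite strand, and the members HIST1H2BD, HIST1H2BL and HIST1H2BN have no match.
HIST1H2BK (chr6:27146886-27146915, minus strand): ctcttcaccttATTTGCATgagaggtccta
HIST1H2BJ (chr6:27132824-27132853, minus strand): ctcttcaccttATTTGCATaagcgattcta
HIST1H2BG (chr6:26216718-26216747, minus strand): ttgaattctttATTTGCATgaaaggcctat
HIST1H2BI (chr6:26272875-26272904, plus strand): cagccagcctcATTTGCATatacacgaggt
HIST1H2BH (chr6:26251554-26251583, plus strand): attaagcacctATTTGCATaaaagacctac
HIST1H2BM (chr6:27814963-27814992, plus strand): ttctactcctaATTTGCATaataacattta

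Many H2A and H2B genes of the cluster start back to back, so that a pair shares the stretch between its starts. Among matched genes, 8 such H2A and H2B pairs had starts 194 to 248 bases apart. In 5 pairs both genes were members and in 2 pairs neither was: HIST1H2AA with HIST1H2BA, both at 0 counts, and HIST1H2AJ with HIST1H2BM, at 5 and 2. The remaining pair joined HIST1H2BG, with 6 counts, to HIST1H2AE, with 39. The pair of HIST1H2BJ and HIST1H2AG held 5240 and 5876 counts, and that of HIST1H2BC and HIST1H2AC 3443 and 3876. These are descriptions over 8 pairs without a test.

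Between the lines, histone members stood at 0.44 in median log2 fold change over the 29 that were tested, with 19 called higher and 0 lower. The 117 other members tested stood at 0.32, with 72 called higher and 5 lower. Over all tested members 62.3% were called higher and 3.42% lower, and over all genes tested 22.7% and 20.7%. The histone count is therefore not read as a trait of these genes. The summed level of histone members was 1768 and 2349 CPM in PGK and 2595, 2503 and 2501 CPM in CAG. The CAG libraries lay close together and above both PGK libraries, but PGK replicate 2 was nearer to them than to PGK replicate 1. That separation within the PGK line was 1.33-fold for histone members and 1.05-fold for the other members, which held 8818 and 9266 CPM in PGK and 11071, 11027 and 11256 CPM in CAG. Of the 29 tested histone members, 28 were higher in PGK replicate 2 than in PGK replicate 1, with a median log2 difference of 0.37. The same difference was 0.04 over the other members and 0.01 over all genes tested. Without PGK replicate 1 the median log2 fold change of histone members was 0.22, with 8 called higher, and without PGK replicate 2 it was 0.62, with 25 called higher. The other members gave 0.31 and 0.33. Why the PGK libraries differ was not tested.

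**Figure D3:**
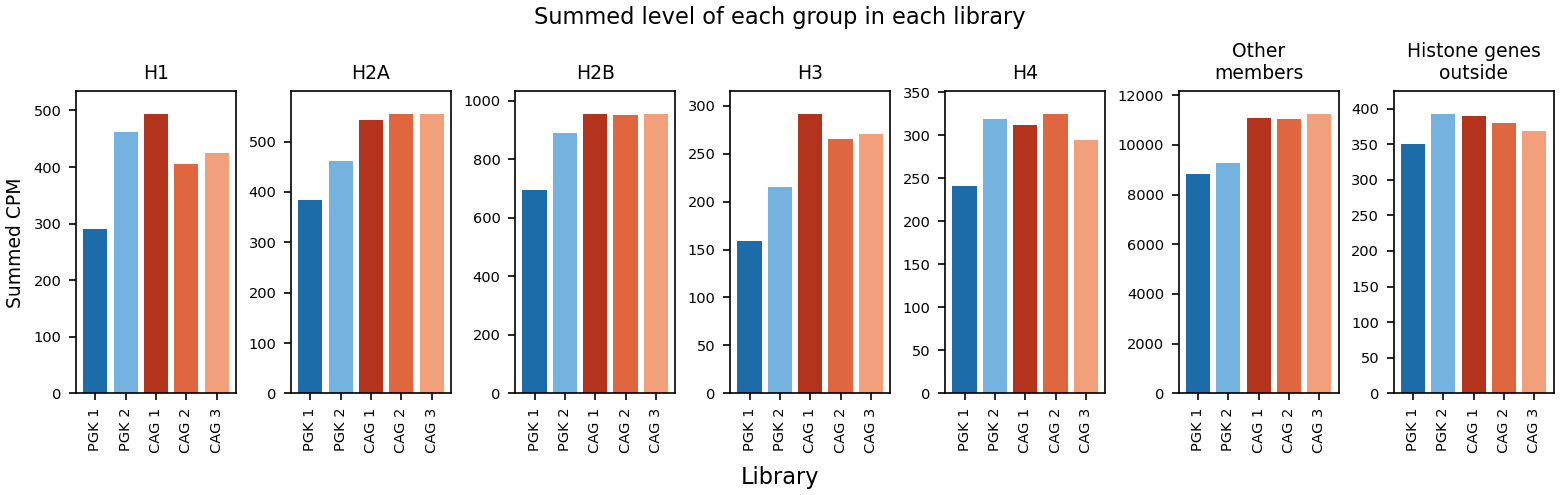
Bars give the CPM summed over the members of each histone class, over the other members and over the histone genes outside the block, for PGK libraries (blue) and CAG libraries (red), each panel with its own y axis from 0. PGK replicate 1 is lowest in every panel; for H1 it stands at 290.1 CPM against 462 CPM in PGK replicate 2.

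Of the linker histones, HIST1H1E and HIST1H1C encode the most widely expressed somatic forms. HIST1H1E was at 165 and 248 CPM in PGK and 266, 214 and 231 CPM in CAG. Its PGK libraries spanned most of the range of the CAG libraries, and its log2 fold change of 0.21 (SE 0.11) became -0.08 without PGK replicate 1. HIST1H1C, at 117 and 195 CPM in PGK and 200.4, 168 and 170.3 CPM in CAG, showed the same overlap, with 0.23 (SE 0.12) for all libraries and -0.13 without PGK replicate 1. HIST1H1D was at 7.62 and 17.9 CPM in PGK and 27.5, 22.7 and 22.6 CPM in CAG. It was the H1 member in which all CAG libraries lay above both PGK libraries, with a log2 fold change of 1.03 (SE 0.22) that was 0.42 without PGK replicate 1. The summed H1 level was 1.59-fold higher in PGK replicate 2 than in PGK replicate 1, the widest such gap of the 5 classes.

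H2A and H3 genes showed larger differences between lines than the other classes. H2A members had a median log2 fold change of 0.54 and H3 members 0.71, over 8 and 7 tested genes. H2B, H4 and H1 members had 0.32, 0.24 and 0.23, over 8, 3 and 3. These medians are descriptions. They include HIST1H2AE, with 1 count in each PGK library, and HIST1H3F, with 0 in both. Both genes, and HIST1H3E, reached 15 counts only through the CAG libraries, which favours a higher median in their classes. HIST1H2AG, a core histone gene with one of the deepest counts, was at 167 and 204 CPM in PGK and 252, 276 and 268 CPM in CAG. The lines did not overlap, and its log2 fold change of 0.52 (SE 0.09) was 0.37 without PGK replicate 1. HIST1H2AC, in contrast, was at 143 and 159.5 CPM in PGK and 160.3, 160.2 and 154 CPM in CAG, so PGK replicate 2 lay inside the CAG range and the log2 fold change was 0.07 (SE 0.07). HIST1H2AM was at 29.4 and 38.1 CPM in PGK and 45.8, 41.3 and 47.1 CPM in CAG, with no overlap and a log2 fold change of 0.44 (SE 0.12).

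In the H3 class all 7 tested members had every CAG library above both PGK libraries. So did 7 of 8 tested H2A members, 6 of 8 H2B, 1 of 3 H1 and 0 of 3 H4 members. Over all members it was 108 of the 146 tested, and over all genes tested 30.9%. The rows were chosen as higher with CAG, so the H3 count is not read as a trait of these genes. For HIST1H3F and HIST1H3E, which reached 15 counts only through the CAG libraries, the separation was partly fixed by that limit. HIST1H3B was at 36.2 and 44.9 CPM in PGK and 65.7, 60.3 and 68.7 CPM in CAG, with a log2 fold change of 0.71 (SE 0.10) for all libraries and 0.53 without PGK replicate 1. HIST1H3D was at 71.6 and 101 CPM in PGK and 127, 113 and 113 CPM in CAG, with 0.48 (SE 0.10) and, without PGK replicate 1, 0.21. For HIST1H3H the levels were 21.3 and 35.3 CPM in PGK and 42.3, 37.6 and 38.1 CPM in CAG, so that its PGK replicate 2 came close to the CAG libraries. HIST1H3H gave a log2 fold change of 0.53 (SE 0.15) with all libraries and 0.14 without PGK replicate 1.

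H2B and H4 genes lay closer between the lines. HIST1H2BK was at 208 and 279.8 CPM in PGK and 279, 288 and 296 CPM in CAG, and HIST1H2BJ at 163 and 219.5 CPM in PGK and 229.6, 223 and 218 CPM in CAG. In both, PGK replicate 2 fell within the CAG range, and log2 fold changes of 0.25 (SE 0.09) and 0.24 (SE 0.09) became 0.03 and 0.02 without PGK replicate 1. HIST1H2BD, at 124 and 142 CPM in PGK and 168, 173 and 164 CPM in CAG, did not overlap and gave 0.35 (SE 0.08). HIST1H4E was at 131 and 170.2 CPM in PGK and 172, 193 and 166 CPM in CAG, and HIST1H4C at 17.02 and 22.99 CPM in PGK and 24.2, 22.9 and 25.4 CPM in CAG. Both overlapped, with log2 fold changes of 0.24 (SE 0.09) and 0.31 (SE 0.15). HIST1H4H was at 93.3 and 126 CPM in PGK and 116, 109 and 103 CPM in CAG, and its log2 fold change was 0.02 (SE 0.09), with -0.22 without PGK replicate 1 and 0.23 without PGK replicate 2. None of the 3 tested H4 genes separated the lines.

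**Figure D4:**
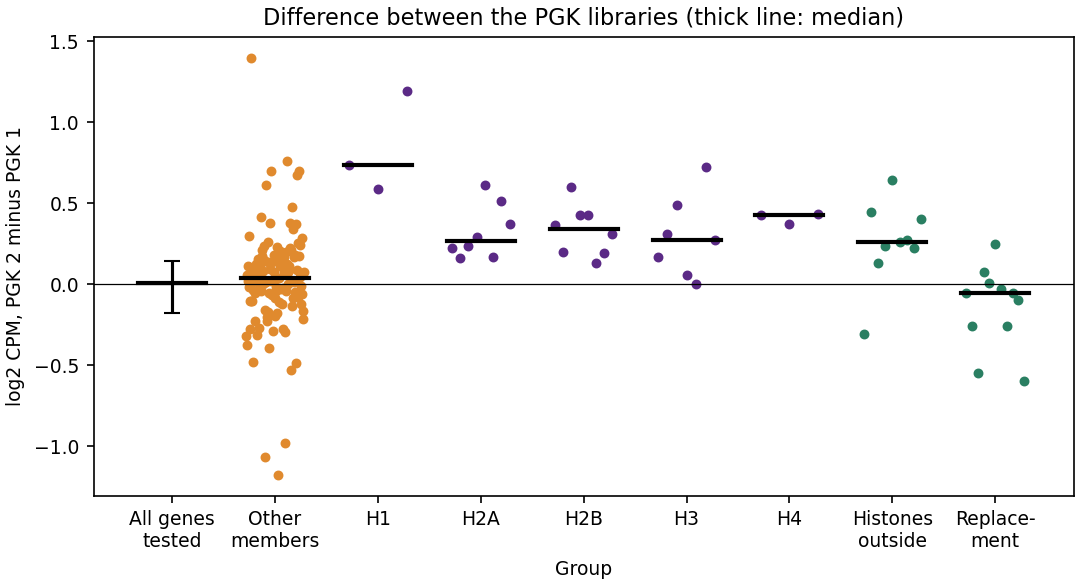
Each point is 1 tested gene and gives its log2 CPM in PGK replicate 2 minus that in PGK replicate 1; thick lines are medians, and for all genes tested the bar spans the quartiles, -0.18 to 0.14. Histone members sit above 0 except HIST1H3F, which has 0 counts in both libraries, while the other members centre on 0.04 and replacement histones outside the block on -0.06.

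A few members were almost uncounted in the PGK line and clearly counted in the CAG line, and are given here although they were picked after their values were seen. HIST1H3F was listed at 0 counts in both PGK libraries, and at 32, 21 and 29 with CAG. With 3 counts over the whole PGK group as the upper limit that 0 allows, its level with CAG was at least 15.95-fold higher. HIST1H2AE had 1 count in each PGK library and 10, 6 and 21 with CAG, a ratio of 10.7 with a 95% counting interval of 2.77 to 92.0. HFE, the gene of hereditary haemochromatosis, which lies among the histone genes, had 1 and 0 counts in PGK and 11, 17 and 17 in CAG, a ratio of 26.1 with an interval of 4.46 to 1055. C6orf201, which has no fold change above, had 2 and 0 counts in PGK and 8, 7 and 5 in CAG. Its ratio was 5.81, with an interval of 1.41 to 51.3. The intervals cover counting error only and are no test, since these genes were picked for this difference in rows chosen by the same contrast. In each of these genes the CAG libraries lay above both PGK libraries. All of them reached the limit on summed counts for members only through the CAG libraries. A gene this scarce in PGK could not be a member without more counts in CAG, so the direction was partly fixed by that limit. The next highest log2 fold change among histone members was 1.12, in HIST1H2AB and HIST1H3E. HIST1H3F and HIST1H2AE carry the uncertainty of near-identical copies given above.

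Histone genes outside the block were not used to choose it and could be tested. They comprised 11 named genes, of which 9 were tested, and their median log2 fold change was -0.03. With edgeR's quasi-likelihood test, adjusted over all genes, HIST3H2A rose in the CAG line, from 31.2 and 37.9 CPM to 52.3, 51.02 and 48.2 CPM (log2 fold change 0.57, SE 0.11, adjusted p = 0.000156). Genes in the neighbouring rows of HIST3H2A had a median of 0.48. HIST2H2BF rose as well, from 94.7 and 76.5 CPM to 98.2, 102 and 102 CPM (0.22, SE 0.08, edgeR adjusted p = 0.0336). HIST2H4B fell, from 3.55 and 3.93 CPM to 2.03, 0.989 and 1.53 CPM (-1.27, SE 0.38, edgeR adjusted p = 0.00882), and so did HIST2H3D, at 8.33 and 11.5 CPM in PGK and 8.34, 5.34 and 4.93 CPM in CAG (-0.65, SE 0.25, edgeR adjusted p = 0.0385). The call of HIST2H2BF was lost without PGK replicate 2 (log2 fold change 0.10) and without each CAG replicate, and that of HIST2H3D without PGK replicate 2 (-0.44), CAG replicate 2 (-0.56) and CAG replicate 3 (-0.49). Those of HIST3H2A and HIST2H4B were kept whichever library was left out, but with DESeq2 the adjusted p of HIST2H4B was 0.0983, and only HIST3H2A stayed called. With the replicate block HIST2H2BF and HIST2H3D lost their calls (edgeR adjusted p = 0.0827 and 0.172). The outside histone genes shared the gap within the PGK line: 8 of 9 were higher in PGK replicate 2, with a median log2 difference of 0.26, HIST2H2BF being the exception at -0.31. Summed over the outside histone genes, the level was 349.8 and 393 CPM in PGK and 389.5, 379 and 368 CPM in CAG, so it did not separate the lines.

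Replacement histones, which are made outside S phase and can be spliced and polyadenylated, are given for comparison. Over 11 tested genes their median difference between PGK replicate 2 and PGK replicate 1 was -0.06, and 3 of 11 were higher in PGK replicate 2. Between the lines, 5 rose and 1 fell with edgeR, beside 22.7% and 20.7% of all genes tested. H2AFZ rose from 36.7 and 38.7 CPM to 69.2, 60.7 and 66.2 CPM (log2 fold change 0.80, SE 0.10, edgeR adjusted p = 3.82e-07), and H3F3A from 82.8 and 79.6 CPM to 133, 133 and 124 CPM (0.67, SE 0.07, edgeR adjusted p = 4.88e-08). The rows around these genes had medians of 0.49 and 0.56. H2AFJ rose from 5.85 and 5.61 CPM to 11.2, 10.3 and 11.4 CPM (0.93, SE 0.22, edgeR adjusted p = 0.00151), in a neighbourhood with a median of -0.03. H1F0, the linker histone of resting cells, was at 37.6 and 24.7 CPM in PGK and 41.9, 40.3 and 42.2 CPM in CAG (0.37, SE 0.13, edgeR adjusted p = 0.0253). That call was lost without PGK replicate 2, where its log2 fold change was 0.14, and without CAG replicate 1 (0.37) or CAG replicate 3 (0.36), as well as with DESeq2 (adjusted p = 0.0981).

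Of 29 tested factors that transcribe histone genes or process their messages, 6 rose and 8 fell in the CAG line with edgeR, beside 22.7% and 20.7% of all genes tested, and their median log2 fold change was -0.04. Those that rose were CDC25A, SLBP, CCNE1, CCNE2, SYMPK and ZNF473. Those that fell were NPAT, TBP, NCBP1, NCBP2, CPSF1, CPSF3, LSM11 and SNRPB. Of these only SNRPB overlapped between the lines, at 129 and 219 CPM in PGK and 136, 138 and 138 CPM in CAG. Its lower level in CAG rests on PGK replicate 2. The cyclin E gene CCNE1 rose from 20.6 and 22.99 CPM to 28.5, 34.6 and 31.3 CPM (log2 fold change 0.54, SE 0.14, edgeR adjusted p = 0.00225), and the zinc finger factor of histone message processing, ZNF473, from 67.7 and 66.7 CPM to 110.0, 93.3 and 97.7 CPM (0.57, SE 0.08, edgeR adjusted p = 4.65e-06). The cap-binding gene NCBP2 fell from 51.6 and 58.9 CPM to 27.9, 29.3 and 33.5 CPM (-0.85, SE 0.11, edgeR adjusted p = 9.38e-07), and the cleavage factor gene CPSF1 from 61.9 and 63.6 CPM to 48.0, 43.7 and 37.3 CPM (-0.55, SE 0.10, edgeR adjusted p = 0.000101). Each of these 4 genes lies among rows shifted the same way, with local medians of 0.37, 0.56, -0.59 and -0.39. The other called factors varied in this. CCNE2 (log2 fold change 0.54) lay among rows with a local median of -0.006, and TBP (-0.48) among rows at -0.19. SLBP (0.37) lay among rows at 0.52. Between the PGK libraries the factors had a median log2 difference of 0.04, close to all genes tested.

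The other members before, among and after the histone genes stood higher in the CAG line with medians of 0.29, 0.41 and 0.55 over 90, 15 and 12 tested genes. The genes with the deepest counts illustrate the size of the shift. The E2F transcription factor gene E2F3 was at 477 and 502 CPM in PGK and 535, 543 and 562 CPM in CAG, and ATXN1, the gene of a spinocerebellar ataxia, at 445 and 495 CPM in PGK and 552, 547 and 576 CPM in CAG. Both had all CAG libraries above the PGK libraries, with log2 fold changes of 0.16 (SE 0.08) and 0.25 (SE 0.08). CDKAL1, a tRNA-modifying enzyme gene, was at 406 and 456 CPM in PGK and 556, 531 and 576 CPM in CAG, with 0.36 (SE 0.08). NUP153, of the nuclear pore, was at 345 and 372 CPM in PGK and 359, 364 and 377 CPM in CAG, and the chromatin gene DEK at 285 and 316 CPM in PGK and 317, 317 and 313 CPM in CAG. These 2 overlapped between the lines, with log2 fold changes of 0.03 (SE 0.08) and 0.07 (SE 0.08).

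The list of developmental transcription factors of the block also holds cofactors such as JARID2. Of it, 8 of 11 tested genes were called higher and 0 lower, with a median of 0.46. Over all tested members 62.3% were called higher and 3.42% lower, and over all genes tested 22.7% and 20.7%. The list count is therefore not read as a trait of these genes. JARID2, a cofactor of the Polycomb complex that methylates histone H3, was at 290.1 and 281 CPM in PGK and 437, 433 and 438 CPM in CAG, with a log2 fold change of 0.61 (SE 0.08). FOXC1 was at 61.2 and 61.96 CPM in PGK and 128, 116 and 120.0 CPM in CAG, with 0.98 (SE 0.08), among the largest shifts of a well-counted member. In both genes the libraries of a line lay close together and the lines did not overlap. E2F3 and ATXN1, described above, belong to the same list.

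Of 15 genes listed as chromatin and cell cycle genes, CDKAL1 among them, 7 were called higher and 1 lower, with a median of 0.28. Of 18 mitochondrial and metabolic genes, 11 were called higher and 1 lower, with a median of 0.30. Both counts stand beside 62.3% higher and 3.42% lower over all tested members, and 22.7% and 20.7% over all genes tested. GMDS, which makes GDP-fucose, was at 283 and 305 CPM in PGK and 377, 389 and 396 CPM in CAG (log2 fold change 0.40, SE 0.08). FARS2, a mitochondrial tRNA synthetase gene, was at 193 and 215 CPM in PGK and 297, 281 and 296 CPM in CAG (0.52, SE 0.08), and LYRM4, of iron-sulfur cluster assembly, at 148 and 159.8 CPM in PGK and 167, 168 and 173 CPM in CAG (0.14, SE 0.07). In all 3 the CAG libraries lay above the PGK libraries, though for LYRM4 by little.

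Serpins and beta tubulins were the smallest families listed, and differences within a family were not tested. Of the clade B serpins, a family of protease inhibitors, SERPINB6 was at 33.2 and 30.8 CPM in PGK and 44.5, 44.5 and 44.9 CPM in CAG (log2 fold change 0.47, SE 0.11), whereas SERPINB1 was at 10.3 and 8.41 CPM in PGK and 9.36, 8.7 and 10.7 CPM in CAG (0.02, SE 0.21). SERPINB9, at 0.709 and 2.52 CPM in PGK and 2.44, 3.76 and 2.72 CPM in CAG, rested on few counts (1.05, SE 0.46). The beta tubulin genes TUBB2A and TUBB2B, a near-identical pair, had log2 fold changes of 0.29 (SE 0.26) and 0.01 (SE 0.27) at mean levels between 5.12 and 6.51 CPM, and neither was called.

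Butyrophilins are membrane proteins of the immunoglobulin superfamily, some of which present ligands to gamma delta T cells. BTN2A1 was at 72.0 and 72.6 CPM in PGK and 108, 112 and 106 CPM in CAG, with a log2 fold change of 0.59 (SE 0.08), and was the 1 of 5 members called. BTN2A2 was at 22.2 and 20.2 CPM in PGK and 28.1, 29.1 and 22.6 CPM in CAG (0.31, SE 0.15), and BTN3A3 at 10.99 and 14.02 CPM in PGK and 10.98, 11.7 and 10.5 CPM in CAG (-0.15, SE 0.19). The first 2 separated the lines and the third did not. Members of this family are similar in sequence, so their counts are uncertain for the reason given for histone copies.

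The list of zinc finger genes, which also holds the transposase-derived gene PGBD1, was the one most often called. It had 11 of 12 higher, 0 lower and a median of 0.49. Over all tested members 62.3% were called higher, and over all genes tested 22.7%. Most of the list lies after the last histone row, where all 12 tested members, unnamed ones included, were called higher. List and position in the rows therefore cannot be told apart. ZSCAN12 was at 78.0 and 95.3 CPM in PGK and 132, 130.1 and 134 CPM in CAG (log2 fold change 0.62, SE 0.08), and ZKSCAN8 at 73.6 and 83.0 CPM in PGK and 89.1, 93.3 and 93.1 CPM in CAG (0.24, SE 0.08). The member not called was ZNF322, at 68.6 and 77.9 CPM in PGK and 77.7, 71.2 and 77.6 CPM in CAG (0.06, SE 0.09), where the lines overlapped. ZSCAN16 stood apart from its neighbours. Its counts were 4 and 5 with PGK and 55, 58 and 71 with CAG, which is 0.709 and 1.4 CPM against 11.2, 11.5 and 12.1 CPM, and its log2 fold change of 3.53 (SE 0.34) was the largest of any member with a mean of at least 5 CPM. The fold rests on the few PGK counts.

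The next largest changes among the other members at that level were in genes with few counts. RNF144B, a ubiquitin ligase gene, was at 6.74 and 6.17 CPM in PGK and 14.2, 14.6 and 14.1 CPM in CAG (log2 fold change 1.13, SE 0.21). NEDD9, a docking protein gene of focal adhesions, was at 6.03 and 4.49 CPM in PGK and 11.8, 8.9 and 11.9 CPM in CAG (1.01, SE 0.24). DCDC2 and KIAA0319, both linked to dyslexia by association studies, were at 4.26 and 1.96 CPM and at 2.48 and 4.49 CPM in PGK, with 5.7, 7.71 and 8.17 CPM and 7.73, 5.54 and 6.3 CPM in CAG. Their log2 fold changes were 1.11 (SE 0.31) and 0.98 (SE 0.31). In all 4 genes the lines did not overlap. DCDC2 and KIAA0319 reached the mean of 5 CPM only through the CAG libraries, which favours that direction.

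Of the 6 lowest members at that level, TPMT and KDM1B lay in adjacent rows, 6118 and 6119, with MBOAT1 at row 6123. BMP6 and EEF1E1 lay at rows 6071 and 6074, and POM121L2 at row 6194. POM121L2 was at 21.5 and 34.5 CPM in PGK and 14.4, 19.6 and 16.8 CPM in CAG, with the lowest log2 fold change of the block, -0.67 (SE 0.18). BMP6, a bone morphogenetic protein gene, was at 39.0 and 45.1 CPM in PGK and 33.4, 31.4 and 33.2 CPM in CAG (-0.35, SE 0.11). KDM1B, a histone H3 lysine demethylase gene, was at 77.5 and 76.0 CPM in PGK and 65.5, 57.3 and 60.1 CPM in CAG (-0.33, SE 0.09). These 3 and the following genes had every CAG library below both PGK libraries. MBOAT1, an acyltransferase gene, was at 39.9 and 39.3 CPM in PGK and 32.95, 31.8 and 29.8 CPM in CAG (-0.33, SE 0.11). EEF1E1, of the tRNA synthetase complex, was at 112 and 124 CPM in PGK and 97.6, 98.9 and 107 CPM in CAG (-0.21, SE 0.07). TPMT, which methylates thiopurine drugs, was at 29.8 and 34.2 CPM in PGK and 24.0, 27.9 and 24.5 CPM in CAG (-0.32, SE 0.13) and was not called.

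**Figure D5:**
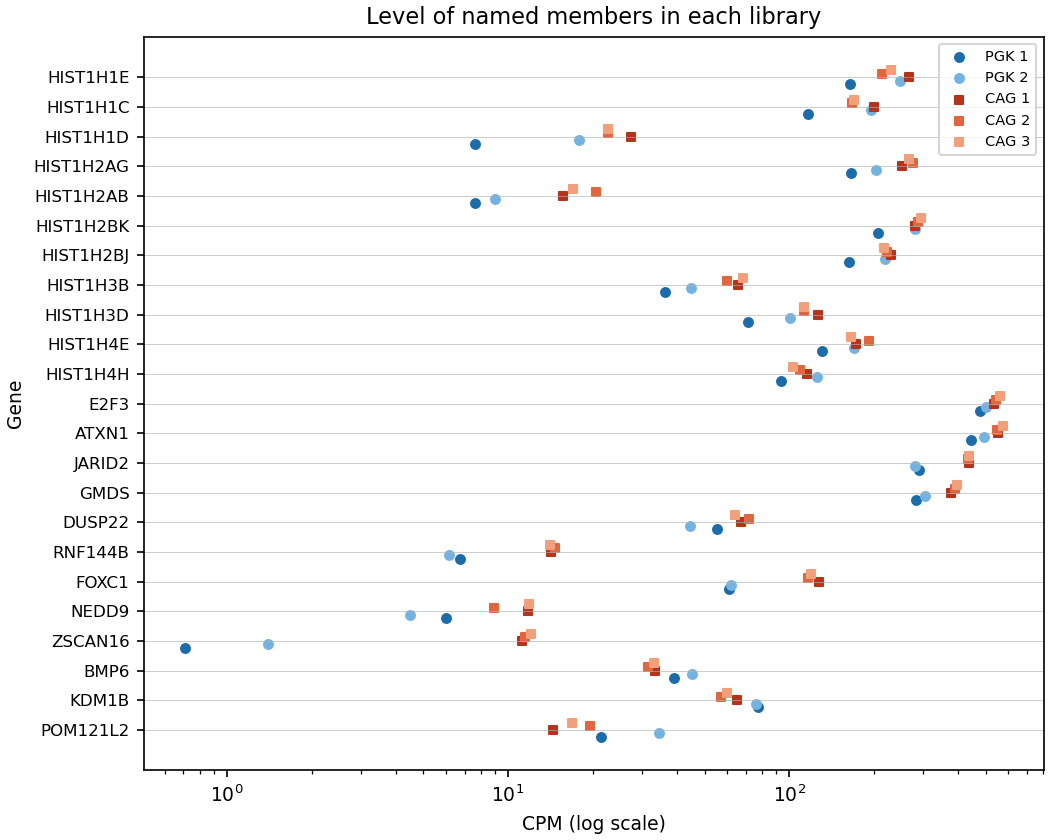
Points give the CPM, on a log axis, of 23 members in each library, circles for PGK and squares for CAG. FOXC1, JARID2 and RNF144B separate the lines with little spread within a line, HIST1H1E and HIST1H4H overlap with PGK replicate 2 at or above CAG libraries, and BMP6, KDM1B and POM121L2 are lower in the CAG line.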

How the data were processed

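The authors deposited raw counts per Ensembl gene identifier for 5 PRO-seq libraries. The build was hg19, and the tools named are featureCounts 2.0.3, HISAT2 2.2.1, Bowtie2 2.5.1, UMI-tools, cutadapt and fastp 0.23.2, per the submitters' processing notes, which give no order or role. The sources used here do not give the counted part of a gene, the strand setting or the handling of multiply matching reads. Overlapping and antisense genes are therefore uncertain. Rows without an identifier (18 rows, at most 0.000448% of a library) were left out.

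Genes were filtered with edgeR's filterByExpr (minimum count 10, minimum total 15), scaled by TMM and compared between CAG and PGK by the quasi-likelihood test, with no covariates, (R 4.3.3 with edgeR 4.0.16). A gene was called at p under 0.05 after Benjamini-Hochberg adjustment over all 13400 genes tested. Standard errors were derived from the fold change and F. Log2 CPM used a prior count of 2. The local median of a gene is that of the 20 tested rows on each side. The fit was tested on simulated data. Intervals for ratios of scarce counts are exact binomial at 95%, and the limit for 0 counts is 3 counts over a line.

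The members and the gene lists were chosen with earlier results of these data known, so counts over them are descriptions. Named genes were, by rule, the 3 members with the highest mean CPM in each histone class, the 8 other members with the highest mean CPM, the 6 highest and 6 lowest fold changes among other members with a mean of at least 5 CPM, the first and last member, up to 3 per list of the block, and up to 4 called genes per outside list. The remembered identifiers of 12 genes, among them HIST1H4A, HIST1H4B, HIST1H4D, HIST1H4G, HIST1H4J, HIST1H4K, HIST1H4L and HIST1H2AD, matched no row and are not analysed here. Names recalled from general knowledge, in place of a table, depart from the planned rule, under which at most 2 identifiers a direction would have been printed. Their only check was chromosome order, which does not test each pair on its own. Replicate numbers were checked for pairing: deviations of same-numbered libraries from their group means correlated at 0.04 and -0.07, so libraries were not treated as paired. As alternatives, each library was left out in turn, DESeq2 1.42.0 replaced the test, replicate number entered as a block, upper-quartile or DESeq2 size factors replaced TMM, and the filter was dropped or set to 1 CPM in all libraries.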

Additional observations from a re-analysis of the deposited data

Results flagged for a closer look

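Counts in rows without an identifier, which enter none of the comparisons, summed to 95 over the 5 libraries. They were listed because there is no control for them and they exceed the limit that a count of 0 allows.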

How the results depend on the processing

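The median log2 fold change of the histone members, of the other members and of all members stayed above 0 under every alternative run. With DESeq2 as the test, 63 members were called in place of 96, and 1 histone gene outside the block in place of 4. With the replicate number as a block, 75 members and 2 outside histone genes were called. Leaving out each library gave 2 to 6 outside histone genes and a median over all members of 0.30 to 0.43. DESeq2 called 3943 genes in all and the block 4667, in place of 5818. Single genes near 0 changed sign: HIST1H4H with DESeq2 (-0.0039), without CAG replicate 1 (-0.03) and without PGK replicate 1 (-0.22); TUBB2B with DESeq2 (-0.0047), with the replicate block (-0.01), without CAG replicate 1 (-0.08), without CAG replicate 3 (-0.03) and without PGK replicate 1 (-0.03); SERPINB1 with the block (-0.06), without CAG replicate 3 (-0.07) and without PGK replicate 2 (-0.09). Without PGK replicate 1, HIST1H1E (-0.08), HIST1H1C (-0.13), HIST1H2AC (-0.02), NUP153 (-0.03), DEK (-0.01) and ZNF322 (-0.05) did so, as did BTN3A3 without PGK replicate 2 (0.01). Over the fits that leave out 1 library, fold changes (log2) spanned -0.08 to 0.53 for HIST1H1E, -0.13 to 0.62 for HIST1H1C, -0.02 to 0.15 for HIST1H2AC, -0.22 to 0.23 for HIST1H4H, -0.03 to 0.09 for NUP153, -0.01 to 0.15 for DEK, -0.09 to 0.19 for SERPINB1, -0.08 to 0.12 for TUBB2B, -0.35 to 0.01 for BTN3A3 and -0.05 to 0.14 for ZNF322. In named members, 45 single-gene values lost their call and 17 gained one; outside the block 17 lost it. The causes were not tested. With 2 PGK libraries, and under 15 counts in 47 of the 199 rows, small differences and scarce copies could not be resolved.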
